A study of Bos taurus with 48 samples.

Results

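The haemoglobin chains HBA, HBB and HBG were followed in the longissimus muscle of cattle from early gestation to adult life. Their probes were selected by name, and HBA and HBG entered the selection because earlier results on these arrays placed them among the largest falls from prenatal to post-natal muscle. The rule took every probe whose gene name or described symbol is an alpha, beta, gamma or epsilon haemoglobin chain. It found 6 of the 21475 probes on the array (6 of 14920 genes matched to RefSeq), for HBA, HBB, HBG, HBE1, HBE2 and HBE4, each printed at 2 spots. HBG and HBA were well above background in all 96 channels, HBB in 84, HBE1 in 58, HBE4 in 19 and HBE2 in 14. A probe was tested when at least 24 channels were well above background, so HBE4 and HBE2 were described and not tested.

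The study hybridised muscle RNA on 48 two-colour Agilent arrays, which give 1 intensity per probe and dye. Piedmontese × Hereford and Wagyu × Hereford crosses were sampled at 60, 135 and 195 days of gestation (6 animals per cross in all), at birth (3 per cross) and at 3, 7, 12, 20, 25 and 30 months of age (5 and 4 animals, sampled repeatedly). Belmont Red cattle on a weight loss or a weight growth diet (4 animals each) were sampled at diet times 0, 1 and 2. At 60 days each cross was a single animal hybridised 3 times, so the spread between animals of a cross is not known there. The SEs and p-values of 135 against 60 days rest on the spread shared by all 18 prenatal and birth animals. At diet time 2 each diet had 2 animals, so the spread there comes from few animals. The Piedmontese samples at 195 days, GP041A and GP041B, were counted as 2 animals, though the labels do not say whether they come from 1 animal. Counting them as 1 animal changed no call of HBA, HBG or HBB. Levels below are normalized log2 intensities with 1 value per animal and time point. A unit step is a doubling of intensity, and differences between low intensities are compressed by the background offset. Levels of different probes cannot be compared, because each 60-base probe binds with its own strength. All 11 skeletal muscle markers on the array were bright enough to be tested, and of the 21 red cell membrane and cytosol genes on the array 11 were tested, as given below. At 135 days the log2 of the summed signal of the muscle markers ran from 13.70 to 19.07 (median 18.11, n = 5). The lowest values were 17.73 at 60 days and 18.68 at 195 days, so muscle signal was far lower in the lowest 135-day sample. The comparisons with 135 days were not adjusted for this.

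Haemoglobin is built from alpha-type and beta-type chains. HBA encodes the alpha chain that is used both before and after birth, HBG encodes the beta-type chain of fetal haemoglobin in ruminants, and HBB encodes the adult beta chain. The epsilon-type genes HBE1, HBE2 and HBE4 belong to the same cluster and are known for use in the embryo. Globin messenger RNA is made by red cell precursors and persists in young circulating red cells, and muscle fibres hold myoglobin instead, so globin RNA in a muscle biopsy is usually read as a sign of its blood. Fewer red cells and less globin RNA per red cell cannot be told apart in bulk RNA.

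In the RefSeq table of the assembly ARS-UCD2.0, HBE1 (chromosome 15, bases 48337002 to 48338858), HBE4 (48346374 to 48347928), HBB (48362354 to 48363996), HBE2 (48388423 to 48389834) and HBG (48412408 to 48414039) lie in that order in the beta-type cluster. HBA lies in the alpha-type cluster on chromosome 25 (bases 216496 to 217264), beside the like-sized HBA1 at 219550 to 220318. The alpha probe is named alpha globin in the files and cannot be assigned to only HBA or HBA1. The sequences of the probes for the adult and the fetal beta-type chain, and of the pair of epsilon probes that overlap in sequence, are shown 5′ to 3′ because the comparison of chains rests on them. Capitals mark the 6 bases that differ between the HBE2 and HBE4 probes over their 58 shared positions, of which 52 (89.7%) match.
HBB: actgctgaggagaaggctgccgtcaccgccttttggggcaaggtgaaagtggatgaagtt
HBG: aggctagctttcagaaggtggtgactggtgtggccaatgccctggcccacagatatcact
HBE2: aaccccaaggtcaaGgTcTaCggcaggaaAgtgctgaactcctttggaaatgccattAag
HBE4: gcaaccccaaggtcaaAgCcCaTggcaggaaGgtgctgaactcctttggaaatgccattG
The HBB and HBG probes come from different stretches of related transcripts. How much of either signal came from the transcript of the other chain was not tested. The HBE2 and HBE4 probes share most of their bases and differed in their signal on the same arrays, as described below.

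Mean globin levels were highest before birth, lowest at 12 and 30 months and in the diet experiment, and in between at the other ages. For HBG the 12 prenatal animals lay between 15.81 and 17.78 with a median of 16.62. The 46 post-natal values of HBG lay between 7.63 and 14.03 with a median of 9.95, below every prenatal animal. HBA showed the same gap, with 15.29 to 17.37 before birth and 8.15 to 14.06 from 3 to 30 months. The adult chain HBB did not separate the stages: its prenatal range was 10.84 to 13.22, its post-natal range was 6.91 to 12.54, and 3 of the 46 post-natal values exceeded the lowest prenatal animal. The prenatal mean exceeded the post-natal mean by 6.56 for HBG, 5.85 for HBA and 3.15 for HBB on the log2 scale. These values chose HBG and HBA and are given without a test. Prenatal and post-natal arrays lay on different slides, so slide and stage cannot be told apart in these differences.

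**Figure D1:**
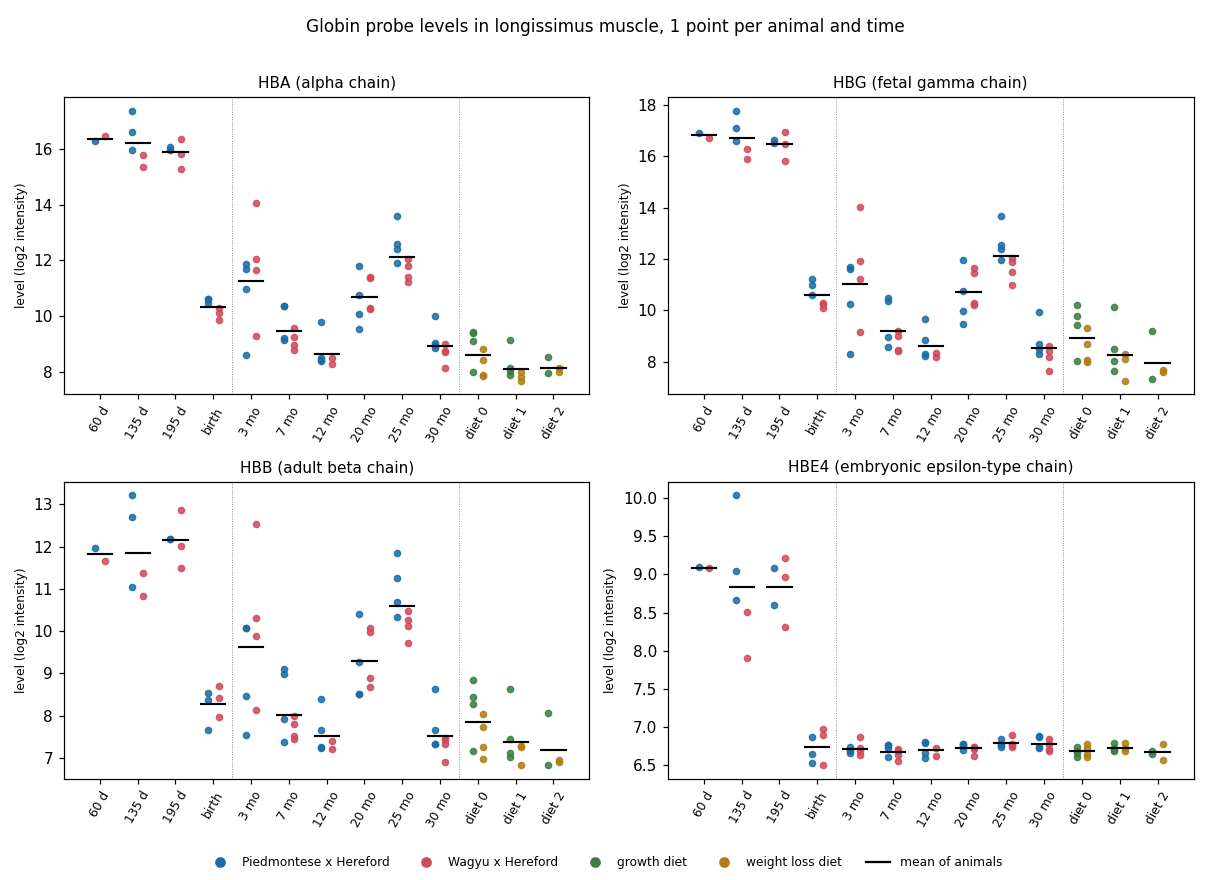
Level (log2 intensity) of HBA, HBG, HBB and HBE4 in each animal at each time point, coloured by cross or diet, with a black bar at the mean. HBA and HBG lie above 15 before birth and below 15 in every later sample, while the 25-month animals stand above those of 12 and 30 months for all 3 main chains, and HBE4 is at 7.90 or higher in the 12 prenatal animals and at 6.97 or lower in every later sample.

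In the order of mean levels, the prenatal times came first and 25 months came next for HBA, HBG and HBB alike. The mean at 25 months was 12.12 ± 0.76 (SD, n = 8) for HBA, 12.11 ± 0.80 for HBG and 10.58 ± 0.68 for HBB. For HBA and HBG the only neighbours in the order whose ranges did not overlap were 195 days and 25 months. For HBB all neighbouring time points overlapped, so the fine order of time points is not resolved by these animals.

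HBE4 was the only epsilon-type chain whose prenatal and later levels did not overlap. Its probe cleared the background in 18 of 18 prenatal channels, in 0 of 6 at birth, in 0 of 48 from 3 to 30 months and in 1 of 24 diet channels. The prenatal animals lay between 7.90 and 10.04, and their mean of 8.87 was at least 4.4-fold above the post-natal bound. Of the others, HBE2 was well above background in 3 of 18 prenatal and 7 of 48 post-natal channels, and its levels lay between 6.54 and 7.15 in all samples. HBE1 stayed between 6.76 and 7.55 in every sample, with 13 of 18 prenatal and 26 of 48 post-natal channels well above background. Of related probes outside the rule, that described as HBZ, the embryonic alpha-type chain, had means of 11.84 before birth and 11.77 after it. A further predicted epsilon-like gene of the same cluster, LOC513241, was well above background in 0 of 18 prenatal and 0 of 48 post-natal channels. How much of the HBE4 signal came from transcripts of other beta-type chains, such as HBG, was not tested.

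The comparisons within gestation did not enter the selection and were tested. At 60 days the Piedmontese and Wagyu animals had HBG levels of 16.91 and 16.73. At 135 days the 3 Piedmontese animals had 17.10, 17.78 and 16.60, and the 2 Wagyu animals 16.29 and 15.90. At 195 days the values were 16.65 and 16.53 in the Piedmontese and 16.93, 15.81 and 16.48 in the Wagyu cross. The ranges of the 3 times overlapped, and HBG differed by -0.15 ± 0.32 (SE) from 60 to 135 days and by -0.13 ± 0.25 from 135 to 195 days.

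None of the 4 tested globin probes passed an adjusted p of 0.05 in either comparison (limma, Benjamini-Hochberg over 15737 probes). Of all probes, 10.9% passed from 60 to 135 days and 18.6% from 135 to 195 days. HBA differed by -0.21 (95% interval -0.93 to 0.52) in the earlier step and by -0.22 (-0.78 to 0.33) in the later step. HBB differed by -0.01 (-1.11 to 1.08) and then by 0.37 (-0.47 to 1.21). The intervals leave room for changes of up to about a unit for HBB, so stable levels are not shown. HBE1 differed by 0.25 ± 0.10 from 135 to 195 days (adjusted p = 0.0897), and it passed with the array slide as a block, with background subtraction and without the Wagyu animal GW067.

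Some regulators of globin genes changed from 60 to 135 days. Of the 12 tested regulators of red cell genes and globin switching, 4 passed from 60 to 135 days, against 10.9% of all probes (median difference 0.08, all probes 0.03). BCL11A, a repressor of fetal globin genes in red cell precursors that other tissues also use, fell by 2.23 ± 0.14 (SE) on the log2 scale (adjusted p = 1.57e-07). TAL1, a factor of both blood and vessel lineages, rose by 0.81 ± 0.14 (adjusted p = 0.0018), and ZBTB7A, another repressor of fetal globin, and LMO2, the partner of TAL1, also rose. LMO2, at 0.73 ± 0.22 (adjusted p = 0.0459), lost its call without any of GP012, GP041A, GP041B, GP663, GP921, GW600, GW625 or GW911 (adjusted p = 0.0566 to 0.375). Centring each channel on its median ended the calls of TAL1 (adjusted p = 0.245) and LMO2 (adjusted p = 0.565). Of the 9 endothelial markers, 5 passed in the same step, all higher, with a median difference of 0.76. Whether the change of TAL1 and LMO2 belongs to vessel or to blood cells was not tested. From 135 to 195 days 2 of the 12 regulators passed, against 18.6% of all probes, BCL11A at -0.42 ± 0.11 (adjusted p = 0.0132) and TAL1 at 0.36 ± 0.11 (adjusted p = 0.0335). BCL11A lost this call without GP041B (adjusted p = 0.0502) and with the slide as a block (adjusted p = 0.0632), and TAL1 lost it without any of GP012, GP041A, GP921, GW024, GW067, GW600, GW625 or GW780 (adjusted p = 0.0534 to 0.0802). With channel median centring neither passed.

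All 3 main chains were far lower at birth than at 195 days. HBG ran from 10.10 to 11.22 at birth with a median of 10.45, against 15.81 to 16.93 at 195 days. HBA ran from 9.88 to 10.61 at birth with a median of 10.39, against 15.29 to 16.35. HBB ran from 7.66 to 8.71 with a median of 8.40, against 11.50 to 12.87. No animal at birth reached the lowest animal at 195 days for any of the 3 chains. The differences were -5.96 for HBG (62.3-fold), -5.61 for HBA (48.9-fold) and -3.90 for HBB (14.9-fold). Of all probes, 63.5% passed in this comparison, and no p is given for the globins because the 195-day animals belong to the contrast that chose them. For HBE4 the 195-day mean of 8.83 was at least 4.24-fold above the bound at birth, where the measured mean was 6.74.

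Haem genes did not follow the globins at birth as a group. Of the 16 tested genes of haem synthesis and iron uptake, 12 passed, 10 higher and 2 lower at birth (median difference 0.69, all probes 0.06). ALAS2, the red cell form of the enzyme that starts haem synthesis, fell by 2.50 ± 0.23 (SE) on the log2 scale (adjusted p = 1.83e-07), and background subtraction gave -4.05. TFRC, the transferrin receptor, rose by 2.81 ± 0.27 (adjusted p = 2.66e-07), and ALAS1, the form of the starting enzyme used in all tissues, rose by 1.56 ± 0.38 (adjusted p = 0.0019). Of the 11 tested genes of the red cell membrane and cytosol 7 passed, a share close to the 63.5% of all probes, and 6 of the 7 were higher (median 0.17). BLVRB, an enzyme that muscle also holds, rose by 1.98 ± 0.26 (adjusted p = 5.98e-06), and GYPC, a red cell membrane protein also present in other tissues, fell by 1.62 ± 0.22 (adjusted p = 9.09e-06). All 6 tested genes that clear haemoglobin and haem passed, 4 higher and 2 lower at birth. CD163, the macrophage receptor for haemoglobin bound to haptoglobin, rose by 1.62 ± 0.16 (adjusted p = 2.75e-07), and HP, haptoglobin itself, rose by 1.60 ± 0.34 (adjusted p = 0.000738).

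Endothelial markers were lower at birth together with the globins. All 9 passed, against 63.5% of all probes, and 8 of them were lower, with a median difference of -1.33. KDR, a receptor for vascular growth factor, fell by 2.25 ± 0.17 (adjusted p = 2.07e-08) and CDH5, the cadherin of vessel walls, fell by 2.23 ± 0.13 (adjusted p = 9.98e-10). The log2 of their summed signal ran from 14.73 to 15.04 at 195 days and from 13.41 to 13.80 at birth. Of the 12 regulators 8 passed, a share close to the 63.5% of all probes, with 5 higher and 3 lower. LMO2 was among the lower ones at -1.07 ± 0.16 (adjusted p = 2.86e-05), as was TAL1 at -0.80 ± 0.10 (adjusted p = 6.44e-06), which was named after its value was seen. The part of vessel cells in the globin difference was not tested.

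Red cell markers split into dim and bright ones where globins were highest. SLC4A1, the main anion exchanger of the red cell membrane, was well above background in 0 of 18 prenatal channels. RHAG was well above background in 2 of 18 and EPB42 in 5 of 18. GATA1, the lineage factor of red cell precursors, was well above background in 0 of 18. In the same list CA2, a carbonic anhydrase of red cells and other tissues, cleared background in 18 of 18 prenatal channels, and the membrane and membrane skeleton genes GYPC, ANK1 and SPTB, which other tissues also use, had prenatal means of 15.26, 12.36 and 9.16. These genes were named after their values were seen. Of the 11 tested red cell genes, 1 was lower from 3 to 30 months than before birth, and the median post-natal minus prenatal difference was 0.37, against 0.03 over all probes. AHSP, the chaperone of free alpha chains, had a mean of 7.89 before birth and 8.16 after it.

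The differences between chain probes within an animal were set side by side for the stages. Arrays up to birth and those from 3 months on lay on different slides, so slide and stage cannot be told apart between them. HBG minus HBA lay between 0.26 and 0.68 in the prenatal animals, with a mean of 0.54. At birth the mean difference was 0.25 (range -0.01 to 0.76), and at 3 months all 8 animals were below 0 (-0.71 to -0.03). Over the 46 post-natal values the mean was -0.17, and the range of -0.71 to 0.46 overlapped the prenatal range. The mean was 0.04 at 20 months and 0.00 at 25 months, and in the diet cattle it was 0.15, with a range of -0.61 to 0.98 that reached above the prenatal animals. The size and sign of a difference between 2 probes have no meaning of their own, so only its change between stages is described. Over the 4 normalizations tried the prenatal mean lay between 0.54 and 0.69 and the mean from 3 to 30 months between -0.22 and -0.16.

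The adult chain stood closer to the alpha chain after birth. HBB minus HBA lay between -4.90 and -3.48 before birth. At birth it lay between -2.80 and -1.40, and from 3 to 30 months between -2.49 and -0.73, so no later animal reached the prenatal range. Within gestation the mean difference was -4.55 at 60 days, -4.37 at 135 days and -3.75 at 195 days. The animals of 135 days (-4.90 to -3.88) and 195 days (-3.88 to -3.48) met at the edge of their ranges. At 25 months, when HBA averaged 12.12 and HBB 10.58, the difference was -1.54 ± 0.16 (SD, n = 8). The post-natal mean was -1.44 here and -1.87 with background subtraction, where low intensities are less compressed. No p is given for these differences, since they combine probes that were chosen for their levels. As for HBG minus HBA, slide and stage cannot be told apart between birth and the later ages.

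**Figure D2:**
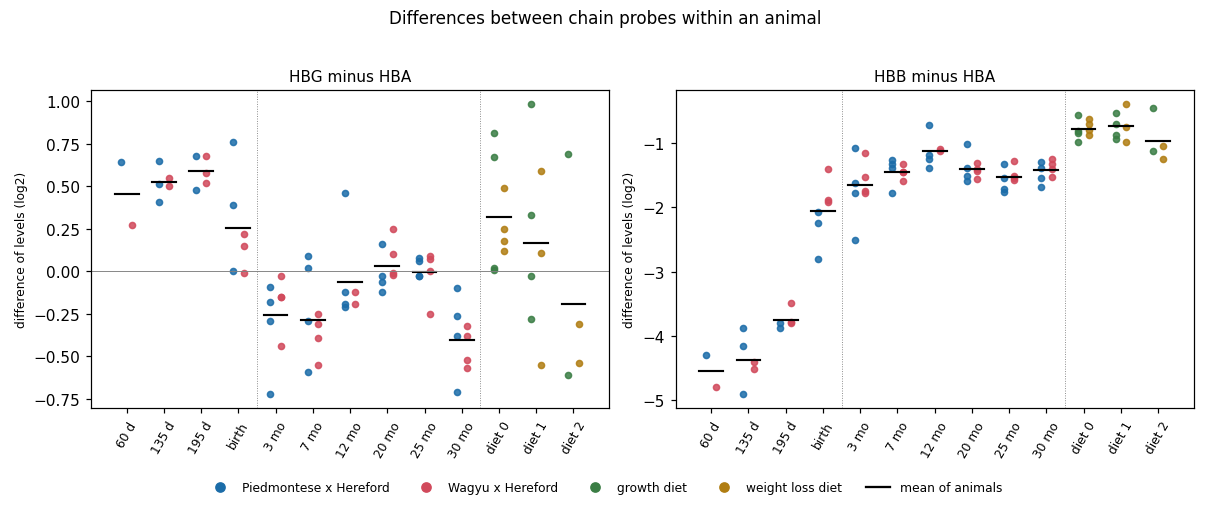
Difference between 2 chain probes within each animal (log2), HBG minus HBA on the left and HBB minus HBA on the right, with a black bar at the mean of each time point. HBB minus HBA lies at -3.48 or lower in every prenatal animal and at -2.80 or higher in every later sample, and HBG minus HBA lies at 0.26 or higher in the 12 prenatal animals, at -0.03 or lower in the 8 animals at 3 months, and spreads from -0.61 to 0.98 in the diet cattle.

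Between 3 and 20 months the globins differed with age, with lower levels at 7 and 12 months and higher levels at 3 and 20 months. HBG at 3 months ran from 8.31 to 14.03 with a median of 11.41, and its SD of 1.78 was the largest of any time point. The Wagyu animal GW245 held the top value for each of the 3 chains, 14.03 for HBG, 14.06 for HBA and 12.54 for HBB. Its HBB level exceeded 9 of the 12 prenatal animals, while its HBG and HBA levels exceeded none of them. At 7 months HBG ran from 8.41 to 10.46 (median 8.96), at 12 months from 8.18 to 9.66 (median 8.31), and at 20 months from 9.48 to 11.96 (median 10.52). The 12-month animals were thus at the bottom and the 3-month and 20-month animals at the top of the 4 ages, with overlapping ranges.

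Across these 4 ages, with the animal as a block, HBA (adjusted p = 6.09e-06), HBG (adjusted p = 1.49e-05) and HBB (adjusted p = 1.67e-05) passed limma's F test, and HBE1 did not (adjusted p = 0.0515). HBE1 passed with background subtraction (adjusted p = 0.0147), quantile normalization (0.0183), the slide as a block (0.0249), without GP201 (0.0294) and without GW245 (0.0339). Of all probes 47.5% passed the same test, so 3 of 4 globin probes is read against that share. Over the alternatives that keep all animals the highest adjusted p was 0.00958 for HBA, 0.0133 for HBG and 0.00601 for HBB. From 3 to 7 months HBB was lower in 7 of 7 animals sampled at both ages, and HBA and HBG in 6 of 7. From 7 to 12 months all 3 chains were lower in 5 of 5 animals, with mean changes of -0.65 ± 0.25 (SD) for HBA, -0.55 ± 0.30 for HBG and -0.41 ± 0.29 for HBB.

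From 12 to 20 months the direction turned. HBG was higher in 6 of 6 animals by 2.08 ± 0.93 (SD), HBA in 6 of 6 by 1.99 ± 0.66, and HBB in 6 of 6 by 1.72 ± 0.73. Between the end points of the period no globin probe passed. Of all probes 31.7% passed between 3 and 20 months, against none of the 4 globin probes, with HBG at -0.29 (95% interval -1.10 to 0.51), HBA at -0.59 (-1.34 to 0.16) and HBB at -0.34 (-1.03 to 0.35). The 4 ages lay together on each of 4 slides. From 20 to 25 months all 8 animals were higher for each chain, HBG by 1.39 ± 0.84, but the ages lay on different slides, so slide and age cannot be told apart in that step.

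The globins fell between 25 and 30 months in every animal. HBG had 11.95, 12.37, 12.55 and 13.68 in the Piedmontese animals GP112, GP130, GP201 and GP285 at 25 months, and 8.48, 8.69, 8.31 and 9.92 at 30 months. In the Wagyu animals GW169, GW179, GW212 and GW245 it had 11.88, 10.97, 11.48 and 12.04 at 25 months, and 7.63, 8.16, 8.62 and 8.42 at 30 months. The lowest value at 25 months lay above the highest at 30 months. HBA ran from 11.22 to 13.60 (median 11.97) at 25 months and from 8.15 to 10.02 (median 8.91) at 30 months. HBB ran from 9.71 to 11.84 (median 10.40) and then from 6.91 to 8.64 (median 7.37). As with HBG, the ages did not overlap for HBA or HBB.

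HBG fell by 3.58 ± 0.40 (SE) on the log2 scale, or 12.0-fold (limma, adjusted p = 2.9e-08). HBA fell by 3.18 ± 0.37 (9.09-fold, adjusted p = 6.64e-08) and HBB fell by 3.07 ± 0.34 (8.42-fold, adjusted p = 2.96e-08). HBE1 differed by -0.06 ± 0.07 (adjusted p = 0.526), except that with each channel centred on its median it passed at -0.51. Of all probes 25.1% passed, against 3 of 4 globin probes. Each of the 8 animals was lower at 30 months for all 3 chains, and the 4 animals of each slide were hybridised for both ages on that slide. The mean difference of HBG was -3.42 ± 0.70 (SD, n = 4) on 1 slide and -3.75 ± 0.34 on the other. Background subtraction gave HBB -4.03 and HBG -4.05, and centring each channel on its median moved the median of all probes by 0.48 and left HBG at -2.77, HBA at -2.32 and HBB at -2.41.

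**Figure D3:**
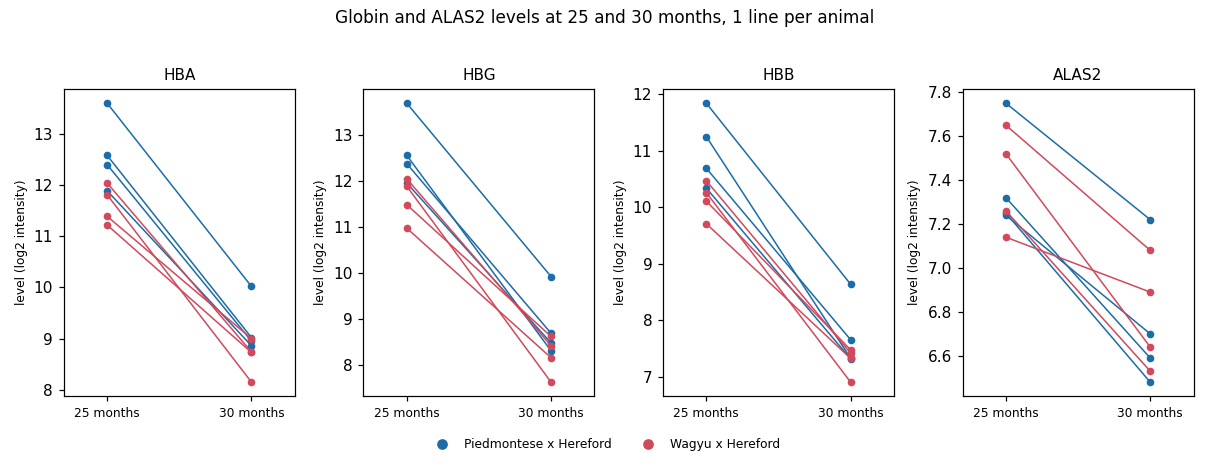
Level (log2 intensity) of HBA, HBG, HBB and ALAS2 in 8 animals at 25 and 30 months, with a line for each animal coloured by cross. Every line falls, and for the 3 globins all values at 25 months lie above all values at 30 months.

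ALAS2 fell with the globins in this step, while few other red cell genes passed. ALAS2 ran from 7.14 to 7.75 (median 7.29) at 25 months and from 6.48 to 7.22 (median 6.67) at 30 months, and was lower in 8 of 8 animals. It fell by 0.63 ± 0.13 (SE) on the log2 scale (adjusted p = 0.000531), with 5 of 8 channels well above background at 25 months and 2 of 8 at 30 months. Background subtraction gave -2.50 for ALAS2. Of the 16 haem and iron genes 7 passed, against 25.1% of all probes, with 2 higher and 5 lower (median -0.05, all probes 0.01). Among them were GLRX5, which helps to build iron-sulphur clusters, at -0.51 ± 0.11 and ALAS1 at -0.35 ± 0.09. Both turned positive without passing when each channel was centred on its median.

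Of the 11 red cell membrane and cytosol genes 2 passed, against 25.1% of all probes (median 0.07). They were GYPC, higher by 0.33 ± 0.10 (adjusted p = 0.00924), and EPB41, a membrane skeleton protein, at -0.25 ± 0.07 (adjusted p = 0.0115). EPB41 was at 0.01 on 1 of the 2 slides alone, and lost its call without GP130 or GW169 (adjusted p = 0.0662 and 0.0667), as GYPC did without GW245 (adjusted p = 0.0545). The log2 of the summed signal of the 11 genes ran from 15.81 to 16.64 at 25 months and from 16.14 to 16.49 at 30 months. AHSP was lower at 30 months in 2 of 8 animals. Of the 12 regulators 2 passed, against the same 25.1% of all probes. They were NFE2, a factor of red cell and platelet precursors that granulocytes also hold, at -0.85 ± 0.22 (adjusted p = 0.00385) and LMO2 at -0.25 ± 0.09 (adjusted p = 0.0365). LMO2 turned to 0.61 without passing under channel median centring, and lost its call without GP201, GW169, GW179 or GW245 (adjusted p = 0.0534 to 0.198).

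Some markers of white blood cells also passed in this step. Of 12 tested leukocyte markers 4 passed, all lower at 30 months (median -0.24), against 25.1% of all probes. They included S100A12 of granulocytes at -0.71 ± 0.22 (adjusted p = 0.0179), NKG7 of cytotoxic lymphocytes at -0.53 ± 0.11 (adjusted p = 0.000706) and PTPRC, the common leukocyte antigen, at -0.39 ± 0.10 (adjusted p = 0.00399). S100A12 and PTPRC turned positive without passing under channel median centring, where NKG7 was at -0.02, and S100A12 lost its call without GP201 or GW245 (adjusted p = 0.0553 to 0.0916). The log2 of the summed leukocyte signal ran from 12.45 to 13.41 at 25 months and from 12.24 to 12.95 at 30 months, with CD3D and ITGAM well above background in 0 of 96 channels. Neither of the 2 tested platelet markers passed, and their summed signal ran from 9.64 to 9.78 and from 9.58 to 9.87, with PF4 at 0 of 96 channels. Of 9 endothelial markers only VWF passed, higher by 0.76 ± 0.13 (adjusted p = 5.64e-05). The part of these cells in the globin difference was not tested.

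HBA, HBG and HBB moved together over animals as well as over time. Over the 26 condition means Pearson's r was 0.997 between HBA and HBG, 0.974 between HBA and HBB and 0.970 between HBB and HBG. Those points share the large gap between prenatal and later samples. Over the 46 post-natal values with the mean of each age removed, r was 0.984, 0.965 and 0.985 for the same pairs. HBE1 had r of -0.0844 with HBA over the same values. These are descriptions, since the points share arrays and animals.

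The gene most like each main chain outside the globins was ALAS2. Its r over the age-centred post-natal values was 0.718 with HBA, 0.724 with HBG and 0.764 with HBB. The next genes were less alike, with IFT25 at 0.629 for HBB and LOC618163 at 0.588 for HBA. Over the 26 condition means ALAS2 had r of 0.968 with HBA, 0.972 with HBG and 0.924 with HBB. Outside the globins ALAS2 was followed by TSPAN9 (0.965) and SOX4 (0.962) for HBA, and by SOX4 (0.964) and TSPAN9 (0.963) for HBG. Both genes, like the globins, were higher before birth. For HBB the next were TSPAN9 (0.911) and GTSE1 (0.909), which completed its 5 most like genes. Among the 11 tested red cell membrane and cytosol genes, r with HBA over the age-centred values reached 0.340 for SPTB and -0.227 for AHSP.

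**Figure D4:**
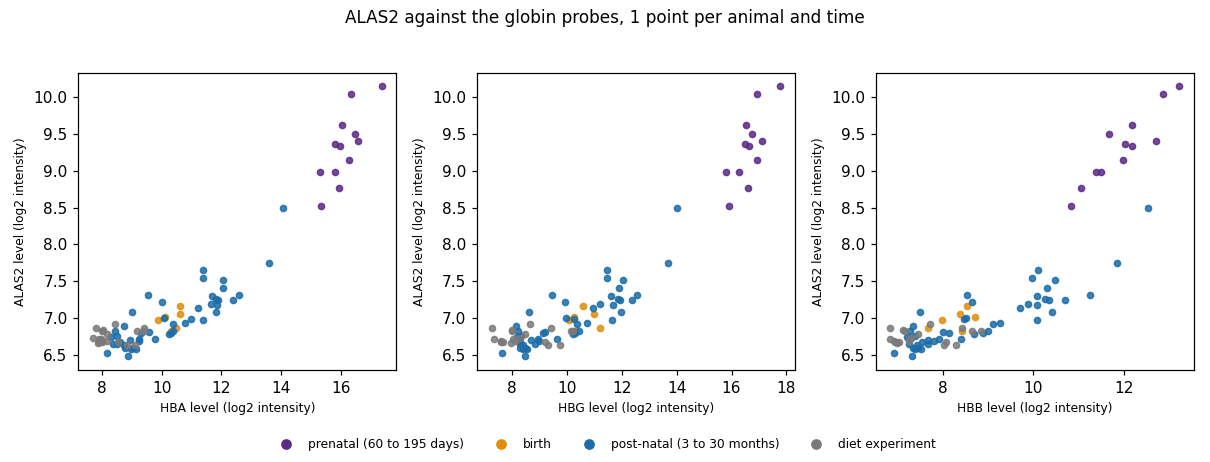
ALAS2 level (log2 intensity, vertical) against the level of HBA, HBG and HBB (log2 intensity, horizontal) in each animal at each time point, coloured by stage. ALAS2 lies at 8.52 or higher in all 12 prenatal animals, and of the later samples GW245 at 3 months, with HBA at 14.06, has the highest ALAS2 level at 8.49.

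ALAS2 also differed over the ages 3 to 20 months (adjusted p = 0.00269) and had a mean of 9.32 before birth and 7.00 from 3 to 30 months. All 18 prenatal channels but only 16 of the 48 post-natal channels were well above background for ALAS2. Near background the probe cannot show how closely it follows the globins.

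No globin probe passed between the crosses at any stage. At birth the Piedmontese animals had HBG levels of 11, 10.60 and 11.22, and the Wagyu animals 10.26, 10.30 and 10.10. HBA had 10.61, 10.60 and 10.46 against 10.11, 10.31 and 9.88. All 3 Piedmontese animals lay above all 3 Wagyu animals for these chains, and HBB overlapped with 8.37, 8.53 and 7.66 against 8.71, 8.42 and 7.97. The difference at birth was 0.72 ± 0.18 (SE) for HBG and 0.45 ± 0.14 for HBA, each with adjusted p = 0.699, and -0.18 ± 0.28 for HBB. Of all probes 0.00% passed limma's adjusted threshold at birth, while 1049 had an unadjusted p under 0.05. The spread here comes from 3 animals per cross.

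Before birth HBG was 0.55 higher in the Piedmontese cross (95% interval -0.03 to 1.12), HBA 0.49 (-0.15 to 1.13) and HBB 0.57 (-0.31 to 1.44). After birth the differences were 0.40 (-0.62 to 1.41), 0.31 (-0.56 to 1.18) and 0.29 (-0.61 to 1.19). In both comparisons 0.00% of all probes passed limma's adjusted threshold, with 512 and 683 probes at an unadjusted p under 0.05. The Piedmontese animal GP285 had the highest HBA and HBG level at 5 of the 6 post-natal ages and the highest HBB level at 4 of them. Its HBG level was 9.66 at 12 months and 13.68 at 25 months.

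In the diet experiment the mean globin levels lay near those of 12 and 30 months in the crosses, whose arrays lay on other slides. At time 0 HBG had 10.22, 8.02, 9.43 and 9.77 in the growth animals and 7.98, 8.67, 9.32 and 8.06 in the weight loss animals. At time 1 it had 8.48, 8.01, 7.62 and 10.14 against 8.11, 7.26 and 8.28, and at time 2 9.21 and 7.34 against 7.61 and 7.67. The diets overlapped at every time. The growth animal RG604 was the highest at time 1 for all 3 chains, with 10.14 for HBG, 9.16 for HBA and 8.63 for HBB.

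None of the 4 tested globin probes passed between the diets at any time. Of all probes 4.69% passed at time 0, 20.7% at time 1 and 0.00% at time 2, where 303 had an unadjusted p under 0.05. HBG differed between weight loss and growth by -0.85 (95% interval -2.07 to 0.37) at time 0, -0.63 (-1.94 to 0.69) at time 1 and -0.79 (-2.49 to 0.91) at time 2. HBA differed by -0.73 (-1.45 to -0.02, adjusted p = 0.256), -0.44 (-1.21 to 0.33) and -0.26 (-1.26 to 0.74). The change of the diet difference from time 0 was 0.23 (-1.40 to 1.86) at time 1 and 0.07 (-1.89 to 2.02) at time 2 for HBG, where 14.3% and 0.0318% of all probes passed and no globin probe did. HBE1 differed by 0.24 ± 0.09 at time 1 (adjusted p = 0.0541), and it passed without the filter on dim probes and with the authors' log ratios. These intervals are wide, so equal globin levels on both diets are not shown.

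**Figure D5:**
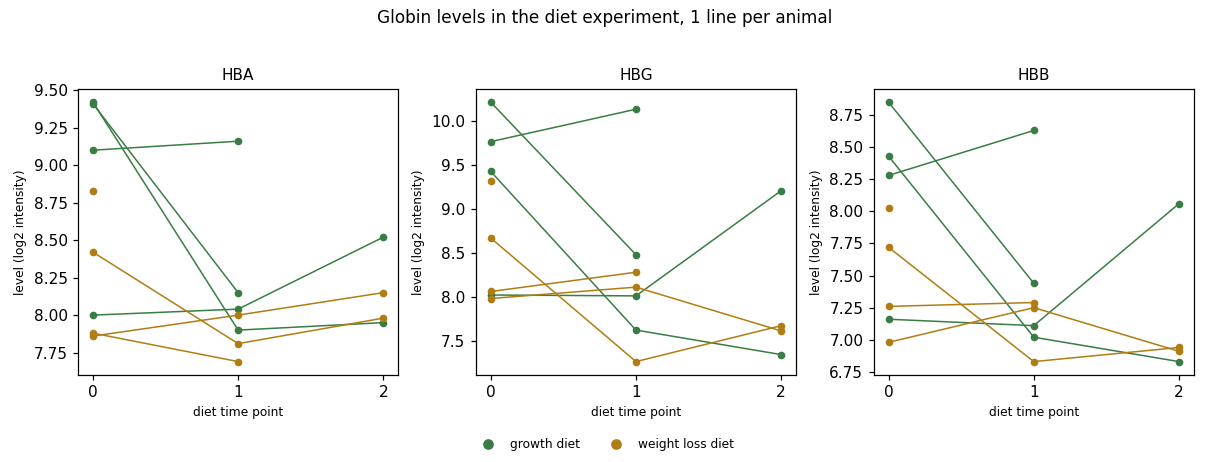
Level (log2 intensity) of HBA, HBG and HBB in each animal of the diet experiment at diet times 0, 1 and 2, with a line joining the samples of an animal, coloured by diet. The diets overlap at each time, and the growth animal RG604 has the highest level of each chain at time 1.

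Some other oxygen and iron genes differed between the diets at time 1, where 20.7% of all probes passed. Of the 5 tested globin-family genes outside the main chains, MB, the myoglobin of muscle fibres, was lower on the weight loss diet, at -2.54 ± 0.45 (SE, adjusted p = 0.00122) and CYGB, cytoglobin, also passed at -0.55 ± 0.18 (adjusted p = 0.0419). CYGB lost its call without RG157, RG166, RG604, RL27 or RL671 (adjusted p = 0.0777 to 0.185). TFRC had the largest difference among the 6 of 16 haem and iron genes that passed, at -4.65 ± 0.72 (adjusted p = 0.000559), followed by ALAS1 at -1.67 ± 0.26 (adjusted p = 0.00065). ALAS2 differed by -0.02 ± 0.09 (adjusted p = 0.875). Of the 11 red cell membrane and cytosol genes 4 passed, 1 higher and 3 lower (median -0.19, all probes 0.00), among them PRDX2, a peroxidase of red cells and many other tissues, at -1.24 ± 0.24 (adjusted p = 0.00256). Muscle and vessel markers moved in the same comparison. Of 11 skeletal muscle markers 6 passed, 5 of them lower (median -0.86), with ACTA1, skeletal actin, at -6.08 ± 0.27 (adjusted p = 3.05e-09) and CKM, muscle creatine kinase, at -1.50 ± 0.29 (adjusted p = 0.00251). Of 9 endothelial markers 4 passed, all lower (median -0.45). Their part in the differences of MB and the iron genes was not tested. Over both diets MB ran from 15.27 to 19.47 at time 1. That range went past both ends of its range at time 0 (16.66 to 17.63) and at time 2 (16.97 to 17.75). The log2 of the summed muscle signal reached 20.53 at time 1, against 19.68 at time 0 and 19.58 at time 2. Each diet time lay on its own slide, so slide and time cannot be told apart in this wider spread.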

How the data were processed

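The authors labelled muscle RNA with Cy3 and Cy5, hybridised it to Agilent bovine arrays and deposited the scanner output of Feature Extraction (9.5.1 per the labels, 9.5.3.1 per the file headers), with mean and local background intensity per spot and dye. Intensities were corrected with limma 3.58.1 (R 4.3.3) normexp (offset 50), loess-normalized within arrays with control and outlier spots at weight 0, and Aquantile-normalized between arrays. Spots of a probe were averaged, the dye effect of each probe was removed within each experiment, and channels of an animal at 1 time were averaged. The filter on dim probes (24 or more of 96 channels flagged as well above local background) kept 15822 of 21475, and the 15737 with no missing value were tested. Depth is not defined for arrays, and the number of animals limits precision. The authors' deposited log10 ratio of each spot served as an alternative, and the deposited series table was not used. The mixed-effect normalization model that the study describes was not refitted here.

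Time points before and at birth were fitted with cross as a covariate, post-natal ages with animal as a block, crosses after birth on 1 coefficient per animal, and diets with animal as a random block (consensus correlation 0.192). Each test was limma's lmFit and eBayes, two-sided, with Benjamini-Hochberg adjustment over all probes. Fits were tested on simulated data. The members, gene lists and tests were chosen with earlier results of these data known. Named list genes were up to 3 per list and comparison with the largest difference among those passing an adjusted p of 0.05, each by its brightest tested probe, and the genes most like a globin were the 5 with the highest Pearson's r. In the lists, HMOX1 and CA2 were left out for an outlier-flagged spot. Gene names and positions came from RefSeq for 16484 probes. The labels give animal names but not litters or sampling days, so p-values measure the spread between these animals. Between post-natal ages, where the animal was a block, that is the spread of their changes with age, not of their levels.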

Additional observations from a re-analysis of the deposited data

Results flagged for a closer look

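Within each time point with 4 to 10 animals, the most extreme animal was set against its neighbour and the range of the group (Dixon's criterion at 95%). Over 72 sets, each of 1 probe at 1 time point, 12 had such a value, and chance gives about 1 in 20 sets. Sets of different probes share their animals, and HBA, HBG and HBB moved together, so the 12 values are not independent of each other.

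The Piedmontese animal GP285 stood above the others at 30 months for HBA at 10.02 (next 9.02), for HBG at 9.92 (next 8.69) and for HBB at 8.64 (next 7.66). It also stood above them at 12 months for HBA at 9.78 (next 8.51). The growth-diet animal RG604 stood above the others at diet time 1 for HBA at 9.16, HBG at 10.14 and HBB at 8.63, and RG166 at diet time 2 for HBB at 8.06. The epsilon-type probes gave 4 such values near background, HBE1 at 6.76 in GP672 at 135 days, HBE4 at 6.87 in GW245 at 3 months, and HBE2 at 6.81 in GP201 at 20 months and 6.54 in GP285 at 30 months.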

How the results depend on the processing

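Of the recomputed values that answer a comparison, 335 were unchanged and 6 were not. A count of passing globin probes was unchanged within 1.5 times, and counts of 0 that stayed at 0 are among the 335. A difference given without a test was unchanged when it kept its direction and moved by less than the SD between animals. HBA, HBG and HBB kept their calls and directions in the 25 to 30 month and 3 to 20 month comparisons under all alternatives. Those 6 each added 1 passing epsilon-type probe where none passed before: 135 to 195 days with background subtraction (1), with the slide as replicate block (1) and on leaving out single animals (0 to 1, 1 without GW067), 60 to 135 days without a filter on dim probes (1, HBE2 at -0.18), and diet time 1 without the filter (1) and with the authors' log10 ratios (1). With no replicate block for animals, 3 probes passed from 25 to 30 months and 3 from 3 to 20 months, as with it. HBE1 raised that number to 4 from 3 to 20 months with the slide as replicate block, background subtraction or quantile normalization and without GP201 or GW245, and from 25 to 30 months with channel median centring. Without the filter HBE4 was at -2.12 from 195 days to birth, a step described here without a test for the globins. In the crosses, same-numbered arrays of 60 days to birth, and of 3 to 20 months, lie on 1 slide. The times up to birth hold different animals, while slides of 3 to 20 months mostly repeat their animals over ages. Deviations were correlated at over 0.1 in 16 of 18 prenatal and birth pairs of arrays on a slide. After birth they were in 21 of 24 pairs, where slide and animal cannot be told apart. The slide block changed no call of HBA, HBG or HBB.

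Single genes were less stable: 2982 of their recomputed values kept their side of the threshold, 334 lost their call, 11 gained one and 7 reversed. Channel median centring reversed 6 named genes from 25 to 30 months, LMO2 (0.61), GLRX5 (0.53), ALAS1 (0.73), S100A12 (0.03), PTPRC (0.24) and CAV3 (0.47), none of them passing there, and on 1 slide alone, chosen after seeing the data, EPB41 was at 0.01. Centring moved the median of all probes by 0.48 in that comparison and by 0.20 from 195 days to birth, and probes called over all alternatives ranged from 765 to 11538 from 25 to 30 months (3948 here) and from 324 to 8474 from 3 to 20 months (7473 here). The causes were not tested. Background limits HBE1, HBE2, HBE4 and ALAS2 after birth, where changes are understated. HBB was well above background in 44 of 48 post-natal and 16 of 24 diet channels, so its changes at low levels are compressed too.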
